A study of Mus musculus with 11 samples.

Results

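The genes described here are those of 5 cytoplasmic intermediate filament proteins, Des, Vim, Nes, Synm and Sync, and of 3 lamins, Lmna, Lmnb1 and Lmnb2. They are 8 of the 15113 genes in a count table of C2C12, an established mouse line of muscle precursor cells that stop dividing and fuse into myotubes once serum is lowered. They were chosen by name, with earlier results of these data known. Each matched 1 Ensembl identifier, and all 8 passed the filter on low counts. The table holds 11 libraries of cells labelled early stage myotubes at passages 2 to 5: 6 carry the hairpin labelled shRandom and serve as control, and 5 carry the hairpin labelled shDRP1. The latter targets Dnm1l, whose product Drp1 is the GTPase of mitochondrial fission, and those libraries are called Drp1 here. No other allele or agent is named in the labels, every library carries a hairpin, and the labels give neither the vector and promoter that drive the hairpins nor whether each line is a single clone. Whether libraries of a group stem from different cultures is also not given, so the p-values reflect only how far these libraries scatter, and that scatter may be technical.

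Intermediate filaments are rope-like polymers of coiled-coil proteins that give cells and nuclei mechanical strength. Vimentin (Vim) forms them in mesenchymal cells and myoblasts, and desmin (Des) builds the muscle network that ties myofibrils to one another, to mitochondria, to nuclei and to the cell membrane. Nestin (Nes) co-assembles with vimentin or desmin in progenitors and young myotubes, and synemin (Synm) and syncoilin (Sync) join the network to the dystrophin complex and other membrane sites. Lamins line the inner nuclear membrane: Lmna encodes the A-type lamins A and C, which are prominent in differentiated and stiff tissues, whereas Lmnb1 and Lmnb2 encode the B-type lamins, which keep a lipid anchor.

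Total counts ran from 12277622 to 23082617 per library. Dnm1l, the targeted gene, lay at 67.1 to 86.3 CPM (the count relative to the library total as scaled by TMM) in control and 14.5 to 21 CPM in Drp1 libraries. Differences were widespread: 67.1% of the 13025 genes tested passed an adjusted p of 0.05 in edgeR's quasi-likelihood test. By direction, 33.9% of the genes tested were higher and 33.3% lower in Drp1 libraries. All 20 markers of skeletal muscle differentiation fell, and their summed level was 16899 to 19166 CPM in control and 165 to 224 CPM in Drp1 libraries, so the Drp1 libraries go against their label of early stage myotubes. Of 14 tested markers of smooth muscle and fibroblasts, 10 rose and 1 fell, with sums of 13585 to 14433 CPM in control and 27935 to 35949 CPM in Drp1 libraries, led by Acta2. Neural and glial markers summed to 60.1 to 72.2 CPM and 19.7 to 24.2 CPM (5 tested, 1 higher, 2 lower), led by Map2, and Sox10, Sox2, Rbfox3, Gfap and Syp were not analysed here. Adipocyte and osteoblast markers (3 tested, 1 higher, 2 lower) summed to 458 to 601 CPM and 145 to 175 CPM, led by Spp1, and Adipoq, Plin1, Sp7 and Alpl were not analysed here. Endothelial, immune and epithelial markers (3 tested, 1 higher, 1 lower) summed to 2.32 to 2.92 CPM and 9.8 to 16.2 CPM, led by Lyz2, and Pecam1, Cdh5, Ptprc and Epcam were not analysed here. The part of these markers in the results below was not tested. In bulk RNA, fewer cells of a type and less RNA per cell cannot be told apart.

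Transcripts of the cytoplasmic filaments and of the lamina both changed in make-up. Des, Nes and Sync fell to 9.87%, 13.5% and 20.4% of their control means, while Vim rose 1.95-fold and Synm 15.2-fold. Of the lamin genes, Lmnb1 rose 1.84-fold, Lmnb2 fell to 34.5% and Lmna to 67.5% of control. In all, 3 members were higher and 5 lower in Drp1 libraries at an adjusted p of 0.05, where 33.9% of all genes tested were higher and 33.3% lower. For all 8 the lowest library of one group lay above the highest of the other, as it did for 48.9% of all genes tested. Changes of at least 2-fold were seen in 5 members (24.9% of all genes) and of at least 8-fold in 2, Des and Synm (7.18%). The median size of the change, without its sign, was 1.91 on the log2 scale over the 8 members and 0.47 over all genes tested. Since the members were chosen with earlier results of these data known, their counts and sizes beside those of all genes are only a description.

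**Figure D1:**
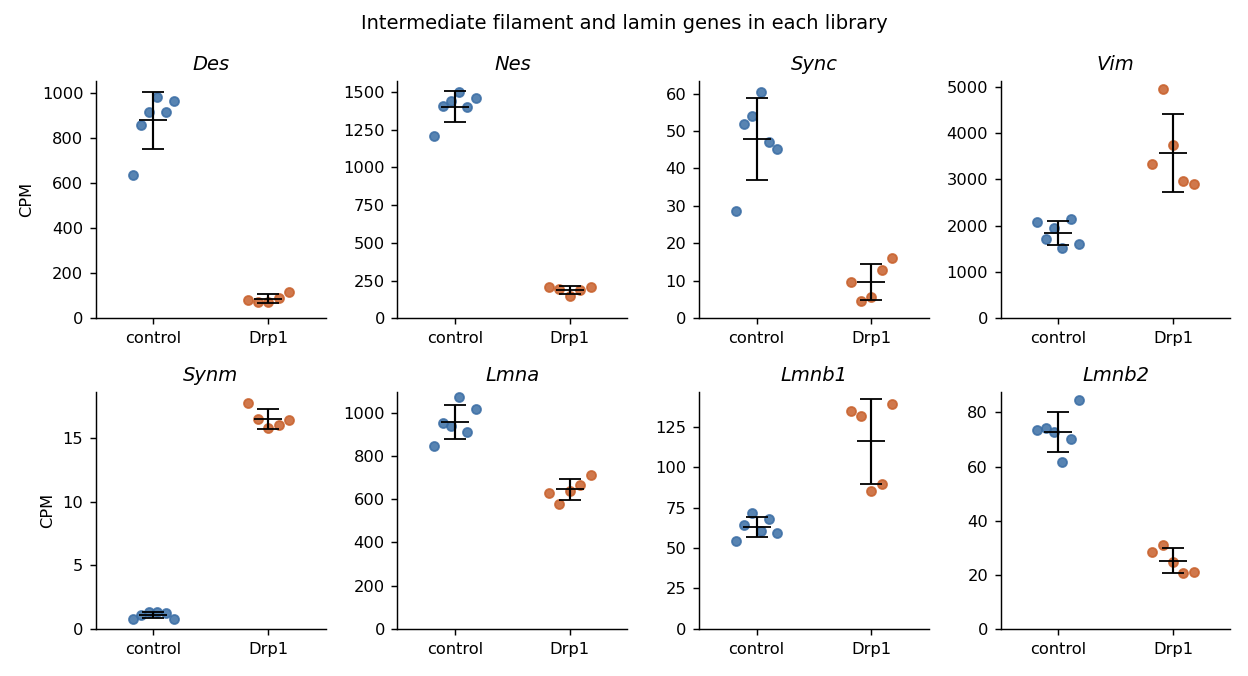
Level of each member in CPM (linear axis from 0) in the 6 control and 5 Drp1 libraries, with the mean and SD of each group as black bars. No panel shows an overlap of the groups, and only Vim, Synm and Lmnb1 are higher in Drp1 libraries.

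Desmin, the main intermediate filament of muscle, showed the largest decrease among the members. Des was at 635 to 984 CPM with a median of 915 CPM over the 6 control libraries and at 81.8, 73.1, 70.5, 91.9 and 117 CPM in Drp1 replicates 1 to 5. The lowest control library, replicate 1, lay well above the highest Drp1 library, replicate 5. The means were 879 ± 127 CPM (SD, n = 6) and 86.8 ± 18.7 CPM (SD, n = 5), with a log2 fold change of -3.34 (SE 0.15, adjusted p = 1.7e-10, edgeR quasi-likelihood test). Only 4.94% of the genes tested had a lower fold change. Des (ENSMUSG00000026208) lies at chr1:75360329-75368579 on the plus strand of GRCm38.

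Nestin, which depends on a partner to polymerise, fell with desmin. Nes was at 1206 to 1502 CPM with a median of 1422 CPM in control libraries and at 209, 192, 147, 187 and 208 CPM in Drp1 replicates 1 to 5. The Drp1 libraries were close together, with replicate 3 the lowest. The means were 1402 ± 103 CPM (SD, n = 6) and 189 ± 24.9 CPM (SD, n = 5), with a log2 fold change of -2.89 (SE 0.10, adjusted p = 2.4e-12, edgeR quasi-likelihood test). Nes (ENSMUSG00000004891) lies at chr3:87971078-87980451 on the plus strand.

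Syncoilin, which binds desmin and the dystrophin-associated protein dystrobrevin, was the least even of the members across Drp1 libraries. Sync was at 28.5 to 60.6 CPM with a median of 49.6 CPM in control libraries and at 9.69, 4.56, 5.67, 12.9 and 16 CPM in Drp1 replicates 1 to 5. Drp1 replicates 2 and 3 held less than replicates 4 and 5, and the coefficient of variation was 49.3% there against 22.8% in control. The means were 47.9 ± 10.9 CPM (SD, n = 6) and 9.76 ± 4.81 CPM (SD, n = 5), with a log2 fold change of -2.28 (SE 0.30, adjusted p = 2.3e-05, edgeR quasi-likelihood test). Sync (ENSMUSG00000001333, chr4:129287617-129308559, plus strand) ends inside the 3' part of Rbbp4, which runs on the minus strand, so tags of the pair cannot be told apart if strand was not used in counting. Rbbp4, a histone-binding protein, was at 322 ± 18.1 CPM (SD, n = 6) and 323 ± 28.5 CPM (SD, n = 5) (adjusted p = 0.97, edgeR).

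Vimentin, the filament of mesenchymal cells and myoblasts, rose. Vim was at 1518 to 2148 CPM with a median of 1829 CPM in control libraries and at 3327, 4949.6, 3729, 2966 and 2894 CPM in Drp1 replicates 1 to 5. Replicate 2 stood highest, and the lowest Drp1 library, replicate 5, was still above the highest control library. The means were 1834 ± 258 CPM (SD, n = 6) and 3573 ± 838 CPM (SD, n = 5), with a log2 fold change of 0.96 (SE 0.14, adjusted p = 2.8e-05, edgeR quasi-likelihood test). Drp1 replicate 2 also had the highest sum of smooth muscle and fibroblast markers, 35949 CPM. Without that library the log2 fold change of Vim was 0.81. Vim (ENSMUSG00000026728) lies at chr2:13573927-13582826 on the plus strand.

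Synemin moved against its partner desmin. Synm had few counts in control libraries, at 0.764 to 1.33 CPM with a median of 1.19 CPM, which is 12 to 24 counts per library. In Drp1 replicates 1 to 5 it was at 17.8, 16.5, 15.8, 16.1 and 16.4 CPM, the narrowest spread of any member in that group (coefficient of variation 4.67%). Among control libraries its coefficient of variation, 24.1%, was the widest of any member. The means were 1.09 ± 0.262 CPM (SD, n = 6) and 16.5 ± 0.772 CPM (SD, n = 5), with a log2 fold change of 3.92 (SE 0.14, adjusted p = 4.3e-12, edgeR quasi-likelihood test), and 1.01% of the genes tested had a higher fold change. Synm (ENSMUSG00000030554) lies at chr7:67730160-67759742 on the minus strand, and 5 protein-coding transcripts with 4 different 3' ends are annotated, whose tags are added up in the count. Its span overlaps that of Ttc23 on the other strand, and without strand in the counting, tags of this pair could not be told apart either. Ttc23 was at 11.4 ± 0.849 CPM (SD, n = 6) and 18.7 ± 2.52 CPM (SD, n = 5) and was itself higher, without overlap (log2 fold change 0.71, adjusted p = 1.4e-05, edgeR).

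The stretches just before the starts of Des, Nes, Sync and Synm are shown because these genes made the 4 largest changes among the members, of which Synm alone rose. Sequences are from RefSeq (GRCm38.p6), 5' to 3' on the strand of the gene, and end at the base before the RefSeq start or before the first GENCODE exon, whichever comes first. Capitals mark E-boxes (CANNTG, the same on both strands), the word that myogenic factors such as MyoD and myogenin, among many helix-loop-helix proteins, bind.
Des, chr1:75360042-75360291, plus strand: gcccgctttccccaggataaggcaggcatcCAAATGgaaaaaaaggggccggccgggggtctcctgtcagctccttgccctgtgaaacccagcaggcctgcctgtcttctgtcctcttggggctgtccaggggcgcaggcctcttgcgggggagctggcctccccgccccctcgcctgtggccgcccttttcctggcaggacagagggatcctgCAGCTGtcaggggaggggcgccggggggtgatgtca
Nes, chr3:87970843-87971077, plus strand: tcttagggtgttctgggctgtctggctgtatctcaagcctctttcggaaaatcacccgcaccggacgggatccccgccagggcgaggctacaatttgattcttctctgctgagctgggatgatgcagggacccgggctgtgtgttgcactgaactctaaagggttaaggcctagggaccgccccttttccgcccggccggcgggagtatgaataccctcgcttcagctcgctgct
Sync, chr4:129287371-129287616, plus strand: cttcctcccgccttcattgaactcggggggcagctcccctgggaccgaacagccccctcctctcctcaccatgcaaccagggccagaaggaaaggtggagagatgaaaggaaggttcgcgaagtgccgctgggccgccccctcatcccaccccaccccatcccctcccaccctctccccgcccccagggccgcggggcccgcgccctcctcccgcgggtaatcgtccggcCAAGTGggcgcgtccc
Synm, chr7:67759743-67759992, minus strand: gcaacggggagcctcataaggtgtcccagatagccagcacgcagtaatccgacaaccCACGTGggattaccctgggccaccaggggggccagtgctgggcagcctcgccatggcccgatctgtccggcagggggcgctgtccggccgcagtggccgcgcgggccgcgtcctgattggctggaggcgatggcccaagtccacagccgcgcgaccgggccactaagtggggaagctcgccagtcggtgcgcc
Distances are counted from the RefSeq start, which lies upstream of the GENCODE start given above for Des, a few bases downstream of it for Nes and Sync, and at the same base for Synm. Des holds 2 E-boxes, one of which begins 36 bases before its RefSeq start. Sync holds 1, which begins 20 bases before its RefSeq start, and Synm holds 1. Nes has no CANNTG in this window. An E-box stood in 66.2% of the 32851 RefSeq windows of 250 bases, so a match is common. GC boxes (GGGCGG, either strand, in 32.7% of windows) occur 2 times in the Des stretch, 2 in Nes and 2 in Sync, with none in Synm, which instead has 1 CCAAT word (33.8% of windows). No CArG box, the site of serum response factor (1.47% of windows), and no MEF2 site (2.92%) was matched in any of the 4. These are matches of letters within these windows and say nothing on binding.

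Counted together, tags of the 5 cytoplasmic filament genes made up 0.387% to 0.441% of all counts in control and 0.329% to 0.551% in Drp1 libraries, so the ranges overlapped and the make-up of the set differed more than its sum. A 3' tag library yields about 1 tag per transcript whatever its length, so these shares are not divided by length. Vim took 37.3% to 52.6% of the set's tags in control and 89% to 94.5% in Drp1 libraries. Nes took 30.6% to 36.9% in control and 3.67% to 6.39% in Drp1 libraries, and Des 16.1% to 24.2% and 1.4% to 3.59%. Synm, a trace in control, reached 0.316% to 0.505%, and in every Drp1 library it held more tags than Sync, whereas Sync had the higher count in every control library.

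**Figure D2:**
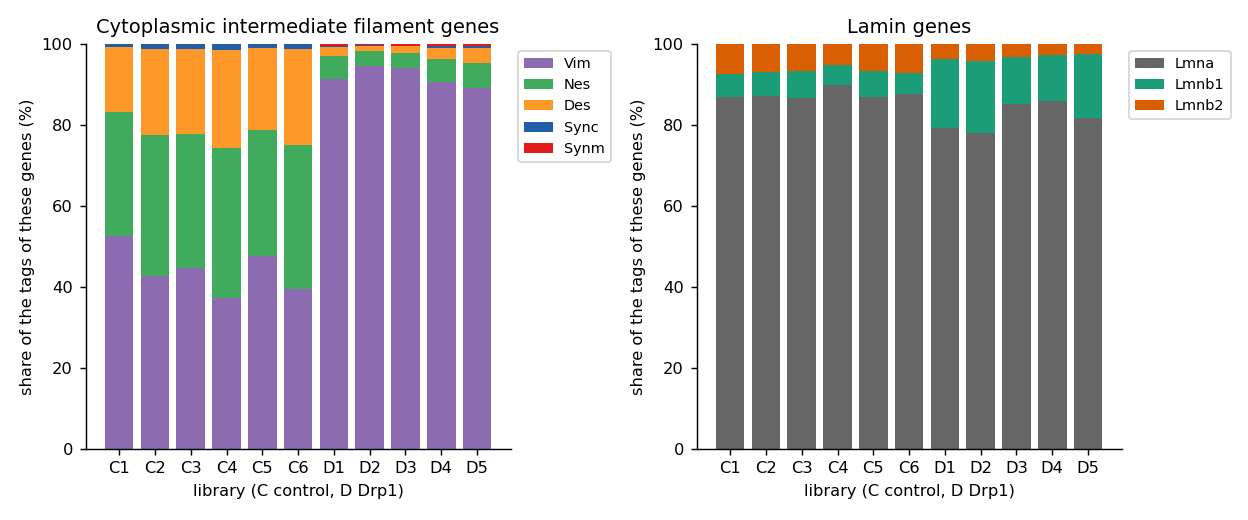
Share of tags (%, linear axis from 0) that each gene took among the 5 cytoplasmic intermediate filament genes (left) and the 3 lamin genes (right), in control libraries C1 to C6 and Drp1 libraries D1 to D5. Vim fills 89% to 94.5% of the left bars in Drp1 libraries against 37.3% to 52.6% in control, and the Lmnb1 band of each right bar is wider for Drp1 than for control.

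Ratios of 2 members within a library do not depend on how libraries are scaled. Per 100 Vim tags there were 30.6 to 64.8 Des tags in control and 1.48 to 4.03 in Drp1 libraries, a difference of -4.30 in mean log2 ratio. Nes tags per 100 Vim tags numbered 58.2 to 99 in control and 3.88 to 7.17 in Drp1 libraries (difference -3.85). The widest shift was between synemin and desmin, with 0.0801 to 0.141 Synm tags per 100 Des tags in control and 14.1 to 22.6 in Drp1 libraries (difference 7.28). Syncoilin fell less than desmin, with 4.49 to 6.15 Sync tags per 100 Des tags in control and 6.24 to 14 in Drp1 libraries (difference 0.94), and the groups lay close but did not overlap. Including the lamin ratios below, 7 ratios were tested by a two-sided exact permutation test over all 462 splits. Each had p = 0.00216 in that permutation test, the smallest it can give (also 0.00216 after Benjamini-Hochberg adjustment over the 7). Except for Sync to Des and Lmnb2 to Lmna, each ratio pairs a rising with a falling member, neither with overlapping groups. For such pairs full separation, and so this p, followed from the levels of the members and is no separate support.

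**Figure D3:**
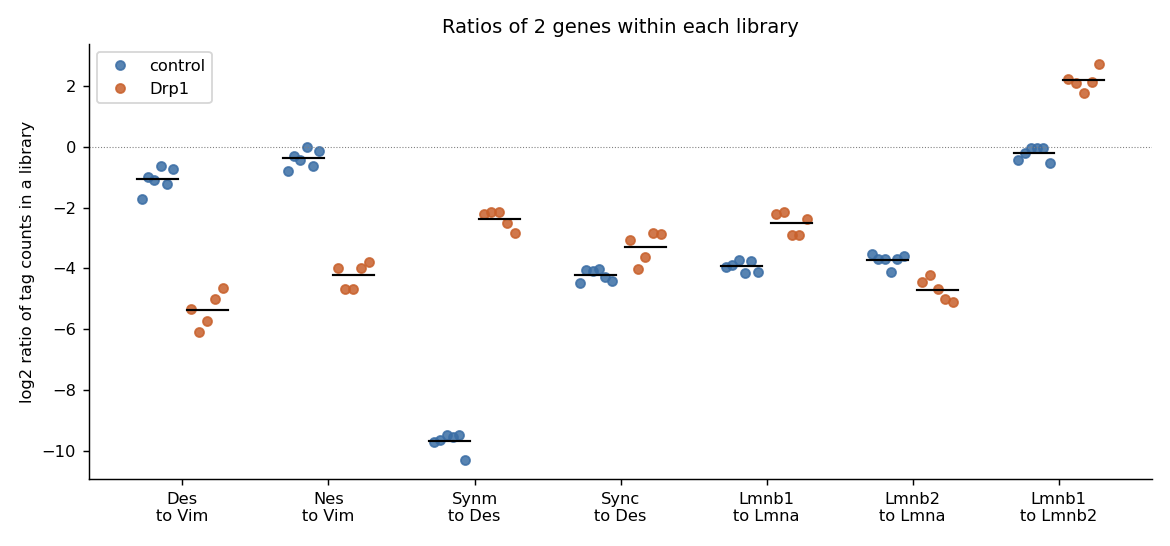
Log2 ratio of the tag counts of 2 members in each library (points) with the group mean (black line), for 7 pairs. The groups are apart in each pair, by 7.28 in means for Synm to Des and by 0.94 for Sync to Des, where the nearest libraries of the groups almost touch.

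The lamin genes moved in both directions, and the pair of B-type genes parted. Lmna, the gene of lamins A and C, was at 847 to 1071 CPM with a median of 943 CPM in control libraries and at 627, 578, 638, 667 and 712 CPM in Drp1 replicates 1 to 5. Each Drp1 library was below each control library, though the gap was small. The means were 955 ± 79.4 CPM (SD, n = 6) and 644 ± 49.6 CPM (SD, n = 5), with a log2 fold change of -0.57 (SE 0.07, adjusted p = 6.5e-06, edgeR quasi-likelihood test). A fold change of at least this size was seen in many genes, since 43.6% of those tested moved further in either direction. Lmna (ENSMUSG00000028063) lies at chr3:88480147-88509956 on the minus strand, and its 4 annotated protein-coding transcripts end at 4 different sites. The count adds their tags, so the balance of lamin A and lamin C was not analysed here.

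Lmnb1, the B-type lamin gene most tied to dividing cells, rose. It was at 54.3 to 71.5 CPM with a median of 62.5 CPM in control libraries and at 135, 132, 85.6, 89.5 and 139 CPM in Drp1 replicates 1 to 5. Replicates 1, 2 and 5 were high and replicates 3 and 4 lay between them and the control libraries. The means were 62.9 ± 6.23 CPM (SD, n = 6) and 116 ± 26.2 CPM (SD, n = 5), with a log2 fold change of 0.88 (SE 0.13, adjusted p = 3.9e-05, edgeR quasi-likelihood test). Lmnb1 (ENSMUSG00000024590) lies on chromosome 18 of GRCm38 from 56707813 to 56753424 on the plus strand.

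Markers of proliferating cells moved with Lmnb1 across Drp1 libraries. Their summed level was 984, 1083 and 867 CPM in replicates 1, 2 and 5 and 610.4 and 560.4 CPM in replicates 3 and 4, against 578 to 759 CPM in control libraries. The last pair therefore lay in or just below the control range of the markers, yet their Lmnb1 levels, 85.6 and 89.5 CPM, were above every control library. Of the 16 markers, 8 rose, among them Pcna and Mcm5, 1 fell, Rrm2, and 7 did not pass. Over all genes tested, 33.9% rose, 33.3% fell and 67.1% passed in either direction. The median log2 fold change of the markers was 0.55 (all genes tested 0.03). Mki67 was at 37.2 and 49.1 CPM (adjusted p = 0.15, edgeR). Pcna, Mcm5, Rrm2 and Mki67 were chosen after their values were seen. The part of proliferation in the Lmnb1 result was not tested.

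**Figure D4:**
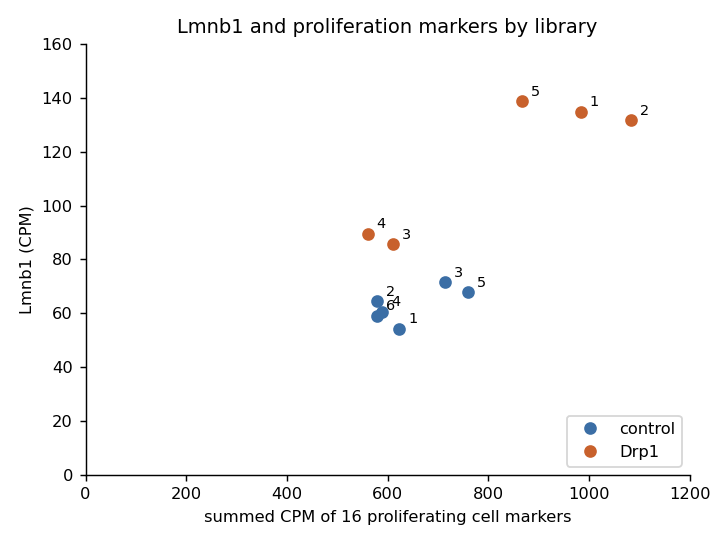
Lmnb1 level (CPM, vertical axis) against the summed level of 16 proliferating cell markers (CPM, horizontal axis), 1 point per library with its replicate number, both axes linear from 0. Drp1 replicates 3 and 4 have marker sums of 610.4 and 560.4 CPM, near those of control libraries, and Lmnb1 levels above them.

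Lmnb2, the second B-type lamin gene, fell. It was at 61.8 to 84.4 CPM with a median of 73.1 CPM in control libraries and at 28.5, 30.9, 24.9, 20.6 and 20.9 CPM in Drp1 replicates 1 to 5, so every Drp1 library held less than every control library. The means were 72.8 ± 7.29 CPM (SD, n = 6) and 25.2 ± 4.56 CPM (SD, n = 5), with a log2 fold change of -1.54 (SE 0.11, adjusted p = 1.8e-08, edgeR quasi-likelihood test). Lmnb2 (ENSMUSG00000062075) lies at chr10:80901203-80918245 on the minus strand.

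The B-type genes traded places within the lamin set. There were 69.9 to 98.1 Lmnb1 tags per 100 Lmnb2 tags in control, fewer than 1 for 1 in every control library, and 344 to 665 in Drp1 libraries (difference 2.40 in mean log2 ratio). Per 100 Lmna tags there were 5.65 to 7.63 Lmnb1 tags in control and 13.4 to 22.8 in Drp1 libraries (difference 1.42). Lmnb2 tags per 100 Lmna tags numbered 5.77 to 8.67 and 2.93 to 5.35 (difference -0.98). Lmnb1 took 5.07% to 6.61% of lamin tags in control and 11.4% to 17.8% in Drp1 libraries, and Lmnb2 5.18% to 7.54% and 2.39% to 4.18%. Lamin tags in all were 0.0975% to 0.114% of the counts in control and 0.078% to 0.0883% in Drp1 libraries.

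Within each group, the same few libraries were highest or lowest in several members. Among control libraries, replicate 4 had the highest Des, Nes, Sync, Synm and Lmna and the lowest Vim and Lmnb2, whereas replicate 1 had the lowest Des, Nes, Sync, Synm, Lmna and Lmnb1. Among Drp1 libraries, replicate 5 had the highest Des, Sync, Lmna and Lmnb1 and the lowest Vim, and replicate 2 had the highest Vim and Lmnb2 and the lowest Sync and Lmna. Over the 11 libraries, deviations from the group means had a Pearson's r of 0.89 between Des and Sync and of -0.88 between Vim and Lmna. These are the highest and lowest r of any pair of members, and some pairs lay near 0, such as Vim and Synm (-0.0013). The values are given as a description since levels of 1 library share its depth and scaling. Over all genes tested the mean absolute deviation from the group mean was largest in Drp1 replicate 2 (0.25 on the log2 scale) and control replicate 1 (0.233), and smallest in control replicate 2 (0.117). Without Drp1 replicate 2 and control replicate 1 together, an alternative chosen after the data were seen, the log2 fold changes were -3.37 for Des, -2.24 for Sync, 0.85 for Vim and 0.79 for Lmnb1, and 3 members were higher and 5 lower.

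Of the other intermediate filament genes tested, most were lower. Of 22 listed keratin, neurofilament and related genes, 13 were in the table and 9 were tested, of which 7 fell and 2 rose. The median log2 fold change was -3.19 (all genes tested 0.03), where 33.3% of all genes tested fell and 33.9% rose. Krt7, Krt19, Krt80, Nefl and Nefm passed the low-count filter through control libraries alone, so they could hardly be called other than lower. The falls and the median therefore partly reflect the filter. With a stricter filter (at least 5 CPM in 5 libraries), 1 was higher and 3 were lower. Of the lower genes, Nefl and Nefm again passed through control libraries alone, so this count is not free of the filter either. Iffo1, an intermediate filament family orphan, fell from 126 to 13.9 CPM and the neurofilament light chain Nefl from 26.6 to 0.236 CPM. Nefm, the medium chain, fell from 7.02 to 0.36 CPM and Krt19, a keratin of simple epithelia, from 2.32 to 0.168 CPM. Over the 5 Drp1 libraries Nefl rests on 21 counts, Nefm on 34 and Krt19 on 15, so the sizes of these falls are uncertain. Adjusted p-values of the 4 ran from 3.3e-13 to 2e-06 (edgeR). The genes that rose were Iffo2, from 34 to 46.2 CPM, and Krt10, from 1.78 to 4.28 CPM with overlapping groups, and both were chosen after their values were seen. Krt8 and Krt18, the keratin pair of simple epithelia, were not analysed here.

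Linkers and partners of cytoplasmic filaments fell more often than they rose. Of 33 listed, 26 were tested, 15 fell, 7 rose and 4 did not pass, where 33.3% of all genes tested fell and 33.9% rose (median log2 fold change -0.63). Ank1, an ankyrin of the muscle reticulum and membrane skeleton, fell from 196 to 7.44 CPM, and the desmosomal plakophilin Pkp1 from 75.8 to 4 CPM. Of the Xin repeat proteins of muscle attachment sites, Xirp1 fell from 25.9 to 0.238 CPM. Its relative Xirp2 dropped from 10.9 to 0.052 CPM. Both sizes are uncertain, because Xirp1 rests on 20 Drp1 counts and Xirp2 on 4, and both passed the low-count filter through control libraries alone. Adjusted p-values of these 4 ran from 5.1e-14 to 1.7e-11 (edgeR). Plectin (Plec), which crosslinks desmin to Z-discs, nuclei and mitochondria, fell from 517 to 232 CPM, and the desmin chaperone alpha B-crystallin (Cryab) from 548 to 251 CPM. Trim32, a ubiquitin ligase that acts on desmin, rose from 21 to 39.4 CPM. Plec, Cryab and Trim32 were chosen after their values were seen.

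Partners of the lamina moved both ways, as did all genes tested. Of 30 listed genes of lamina partners, the nuclear pore and other parts of the nuclear envelope, 28 were tested. Of those, 12 fell, 11 rose and 5 did not pass, where 33.3% of all genes fell and 33.9% rose (median log2 fold change -0.13). Tmem38a, a potassium channel of reticulum and nuclear envelope, fell from 123 to 19.6 CPM, Plpp7 from 12.2 to 0.852 CPM and Syne1, which encodes nesprin-1, from 62.9 to 14.4 CPM. Tmem120b fell from 19 to 8.03 CPM. Adjusted p-values of the 4 ran from 7.6e-14 to 1.4e-08 (edgeR). The genes of LEM-domain proteins, which tie chromatin to the lamina, did not move as 1: emerin (Emd) rose from 96.8 to 121 CPM, while Lemd2 fell from 72.3 to 61.5 CPM, Lemd3 from 21.5 to 18.5 CPM and Ankle2 from 33.2 to 26.3 CPM, the last 3 with overlapping groups. With library totals alone the adjusted p was 0.083 for Lemd2 and 0.18 for Lemd3 (edgeR), so neither passed. Tmpo, which encodes LAP2, was at 81.8 and 77.3 CPM and did not pass (adjusted p = 0.59, edgeR). Tor1aip1, the gene of LAP1, rose from 25 to 46.2 CPM, and the lamin B receptor (Lbr) rose from 53 to 64.1 CPM with overlapping groups. These 7 genes were chosen after their values were seen.

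In the list of lamin and CaaX processing, the count of called genes depended on the scaling. The list holds genes of the farnesyl anchor and its trimming, the mitotic kinase, the prelamin-binding Narf, and the phosphatase Ctdnep1 with its regulator Cnep1r1 and its substrate lipin (Lpin1), which act on lipid synthesis at the nuclear envelope. Of 11 tested, 1 fell, 2 rose and 8 did not pass, so 3 of 11 were called where 67.1% of all genes were. With library totals alone or upper quartile scaling, 5 were higher and 1 lower. The genes added under these scalings were Ccnb1, Fnta and Ctdnep1. Fntb, the beta subunit of the farnesyltransferase, fell from 36.7 to 25.9 CPM. Zmpste24, the protease that trims prelamin A, rose from 104 to 143 CPM, and the protease Rce1 rose from 21.7 to 30 CPM with overlapping groups. Adjusted p-values ran from 2.6e-05 to 0.0022 (edgeR). Cyclin B1 (Ccnb1), whose kinase takes the lamina apart in mitosis, was at 20.1 and 26.9 CPM and did not pass (adjusted p = 0.055, edgeR), but passed with library totals alone (adjusted p = 0.026).

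**Figure D5:**
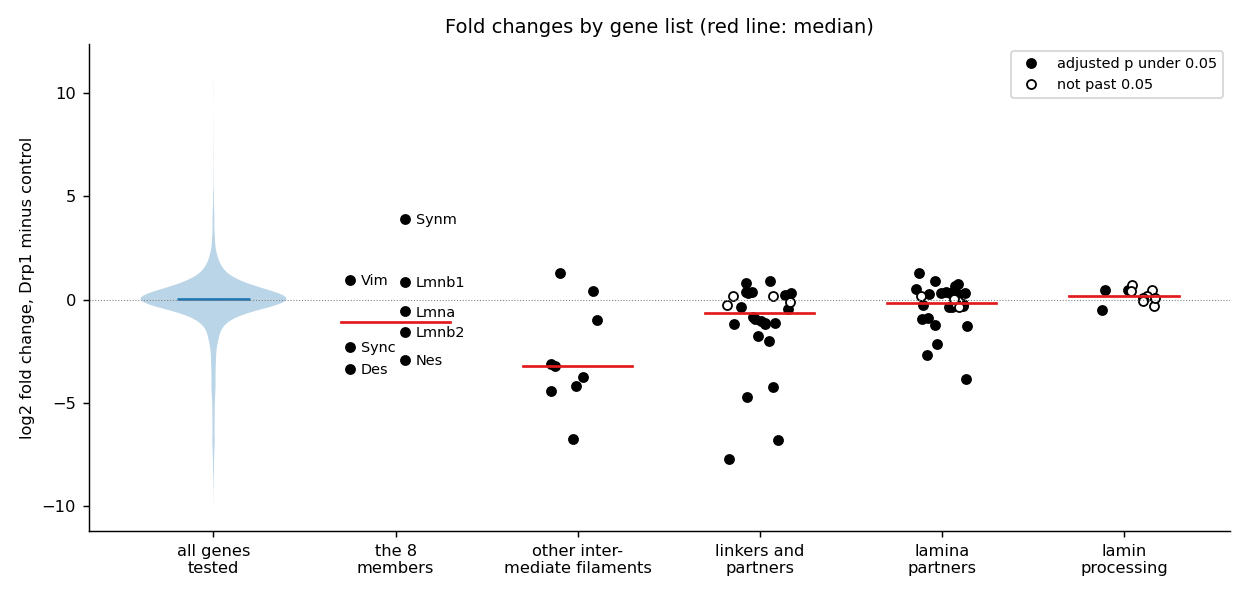
Log2 fold change (Drp1 minus control) of all 13025 genes tested (violin with its median), of the 8 members and of the tested genes of 4 lists. Each point is a gene, filled where its adjusted p is under 0.05, and red lines mark medians, -1.05 for the members and -3.19 for other intermediate filament genes. Of the latter, Krt7, Krt19, Krt80, Nefl and Nefm passed the low-count filter through control libraries alone, so that median partly reflects the filter.

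The genes whose levels ran most alike with each member were found by Pearson's r of log2 CPM over the 11 libraries, among 8117 genes with a mean of at least 10 CPM. Since the libraries fall into the 2 groups, r counts mainly the difference between them, and it is given as a description with r of the deviations from the group means in brackets. For Des these were Slc16a1, a lactate carrier, at 0.998 [0.95] and Ctnna1, alpha-catenin, at 0.998 [0.89]. Nes ran with Camk2a at 0.999 [0.85] and Chst1 at 0.999 [0.84], and Sync with Ddx10 at 0.996 [0.98] and Ppp2r5a at 0.994 [0.98]. Vim ran with Zfp281 at 0.994 [0.98] and Tulp3 at 0.992 [0.96], and Synm with Ogfrl1 at 0.997 [0.76] and the mesenchymal homeobox gene Prrx1 at 0.996 [0.74]. Lmna ran with Phldb1 at 0.996 [0.97] and Gtf2a1 at 0.992 [0.93], and Lmnb2 with Angpt4 at 0.994 [0.89] and Igf2 at 0.994 [0.88]. Lmnb1 had few such genes: 30 genes had an r over 0.95 with it. The other members ran from 253 such genes for Vim to 1125 for Des. Closest to Lmnb1 were Smc2, a condensin subunit of mitotic chromosomes, at 0.986 [0.95] and Hells, a chromatin remodeller of dividing cells, at 0.984 [0.93].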

How the data were processed

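RNA was measured in 11 QuantSeq libraries, an oligo(dT)-primed method that reads tags near the 3' ends of transcripts. In the raw table that the authors deposited, values are whole counts without normalization. The other deposited table gives a signal, which its values show to be those counts over a size factor of each library, and it served only to check that scaling. Alignment was done in BlueBee software, per the series text in the labels, and builds GRCm38 and mm10 and the tool DESeq2 (version 1.22.2) are listed per the submitters' processing notes. Aligner, counter, strand setting and annotation were not given in the sources used here. Reads were 50 bp long per the sample protocol and 75 bp per the series text.

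Samples were grouped by the hairpin in their titles. Symbols came from a reference table (15080 of 15113 identifiers matched) and positions from GENCODE M21 (GRCm38). Tests used edgeR version 4.0.16 (R version 4.3.3): 13025 genes passed filterByExpr, TMM set the scaling, and robust quasi-likelihood fits compared the groups with no covariate. Benjamini-Hochberg adjustment ran over every gene tested, and each SE is the log2 fold change over the root of its F. Ratios used counts plus 0.5 and exact permutation tests. Lists have no set test and are described by counts and medians. The edgeR step was tested on simulated data. Chi-square over degrees of freedom between libraries of a group ran from 5.03 to 57.2, so none repeats another.

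Members and lists were chosen with earlier results of these data known. The text names all members; of each of 4 lists the 4 genes of at least 1 CPM with the smallest adjusted p; for each member the 2 genes with the most similar levels; and genes marked as chosen after their values were seen. Alternatives were other scalings, no and a stricter low-count filter (at least 5 CPM in 5 libraries), DESeq2 version 1.42.0, limma-voom (limma version 3.58.1), a replicate block, thinned counts, stricter thresholds and leaving out each library.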

Additional observations from a re-analysis of the deposited data

Results flagged for a closer look

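Control replicate 1 stood apart from the other 5 control libraries in a pair of members. Its Des level was 635 CPM, and the gap to the next library was 0.637 of the group's range, past Dixon's limit for 6 samples. Its Nes level was 1206 CPM, with a gap of 0.665 of the range. Chance puts about 1 in 20 groups past this limit, and 16 groups of libraries were tested over the 8 members. These groups are not independent, since the same libraries served for every member. Deviations of Des and Nes from the group means had a Pearson's r of 0.72 over the 11 libraries. Without control replicate 1 the log2 fold change was -3.42 for Des and -2.94 for Nes, against -3.34 and -2.89 with it.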

How the results depend on the processing

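All 8 members kept their direction and an adjusted p under 0.05 in each of the 21 alternative fits, 168 comparisons in all. The 7 ratios kept their direction and a permutation p under 0.05 in all 98. For ratios of members that moved in opposite directions this is no separate support. Log2 fold changes ran over -3.47 to -3.24 for Des, -2.95 to -2.80 for Nes, -2.52 to -2.12 for Sync, 0.81 to 1.06 for Vim, 3.84 to 4.02 for Synm, -0.61 to -0.47 for Lmna, 0.79 to 0.98 for Lmnb1 and -1.63 to -1.44 for Lmnb2. The highest adjusted p over these fits was 0.0008, for Lmnb1. With a 2-fold minimum 1 member, Synm, remained called higher and 4 lower, and over all genes 1461 were higher and 1786 lower. That minimum left 0 linkers higher and 11 lower, and 1 lamina partner higher and 5 lower. It left 0 processing genes higher and 0 lower, and 1 other filament gene higher and 6 lower. With the stricter low-count filter, which tests fewer genes, 1 other filament gene was higher and 3 were lower. Of the latter, Nefl and Nefm passed it through control libraries alone. That filter left 4 processing genes higher and 1 lower. At an adjusted p of 0.01, 1 other filament gene was higher and 7 lower, and 5 lamina partners were higher and 10 lower. With library totals alone, and with upper quartile scaling, 5 processing genes were higher, and these scalings put the median of all genes at 0.13 and 0.12 against 0.03. The cause of the other shifts was not tested.

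Controls and Drp1 libraries share replicate numbers 1 to 5, but same-numbered libraries did not deviate together (correlations over genes from -0.176 to 0.357 over 5 pairs, and 0 of these control libraries correlated best with its own number). With the replicate number as a block, 3 members were higher and 5 lower, as without it, and 3934 genes were higher and 4003 lower. Low counts limit Synm in control libraries, where its level rests on 118 counts in all.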
